A study of Homo sapiens with 4 samples.

Results

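The proteasome genes were followed through polysome-profiling libraries of a breast cancer cell line, as the genes of class mRNA whose symbol is a stem from PSMA to PSMG followed by a digit, with no hyphen. The rule found 50 of the 28198 genes in the table, of which 19316 were of class mRNA. Of the 50 members, 48 averaged 1 FPKM or more across the libraries, as did 10905 genes in all. The other 2 were PSMA8, the testis form of an alpha subunit, listed at 0 in 3 libraries and at 0.0231 FPKM in the K177Q-METTL3 sub-polysome library, and PSMB11, the thymus-specific beta subunit, listed at 0 in all 4. PSMC3IP, a meiotic recombination factor, and PSME3IP1, a nuclear protein that binds an activator subunit, matched the name rule without being proteasome subunits. They were kept as members, and 46 of the 48 genes that passed code for subunits, assembly chaperones or regulators.

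The proteasome is the protease that degrades most ubiquitin-tagged proteins in the cytosol and nucleus. Its core is a barrel of outer alpha rings, which gate the entrance, and inner beta rings, which hold the proteolytic sites. The 19S regulatory particle caps the core: ATPases of its base unfold the substrate, and its lid removes the ubiquitin chain. Each subunit is made from its own mRNA, and dedicated chaperones put the parts together.

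MDA-MB-231 cells, a triple-negative breast cancer line, were depleted of METTL3, the methyltransferase that places N6-methyladenosine on mRNA, and reconstituted by lentivirus with METTL3. One arm carried the wild-type protein (WT-METTL3), and the other an acetylation-mimetic form with a glutamine for a lysine (K177Q-METTL3). Cells of both arms were treated with cycloheximide, which holds ribosomes on mRNA, and their lysates were separated on sucrose gradients into a sub-polysome pool, with free subunits and single ribosomes, and a polysome pool. Poly(A) RNA of each pool was sequenced, and the question was how the K177Q form changes the loading of mRNAs on ribosomes. Each of the 4 groups had 1 library, labelled replicate 2 in all 4, so that differences between groups carry no replicate error and no p-value is given.

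The deposited FPKM values (fragment counts scaled to transcript length and library depth) summed to between 767949 and 1037594 per library, and between 15773 and 16193 genes were above 0. The smallest steps of the values gave an approximate depth of 24400000 to 27300000 fragments per library, which leaves the members with at least 279 fragments in a library. Counting error alone then gave a standard error of the log2 difference in translation efficiency of 0.0206 to 0.132 for the members, with a median of 0.0445; it leaves out the spread between cultures and gradients. VIM, CD44, AXL and CAV1, markers of this mesenchymal-like line, lay between 88.6 and 1543 FPKM, while ESR1, PGR, CDH1 and EPCAM lay between 0 and 9.91 FPKM. METTL3 was at 9.39 FPKM off polysomes (in the sub-polysome pool) and 38.7 FPKM on polysomes in WT-METTL3 cells, against 5.07 and 29.5 FPKM in K177Q-METTL3 cells. Its level was lower in both K177Q-METTL3 libraries, and the endogenous transcript and the constructs cannot be told apart in these values.

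Members' FPKM values together made up 0.680% of all FPKM in the sub-polysome library and 1.65% in the polysome library of WT-METTL3 cells. In K177Q-METTL3 cells the shares were 0.618% and 1.61%. Proteasome mRNAs thus held a larger share of the summed FPKM in the polysome than in the sub-polysome library of both arms. As FPKM is scaled to transcript length, these are not shares of RNA mass. Because each library was scaled to its own depth, a polysome to sub-polysome ratio compares shares within the pools and not the amount of an mRNA in each pool. In these bulk samples, a change in some cells and a smaller change in every cell cannot be told apart.

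**Figure D1:**
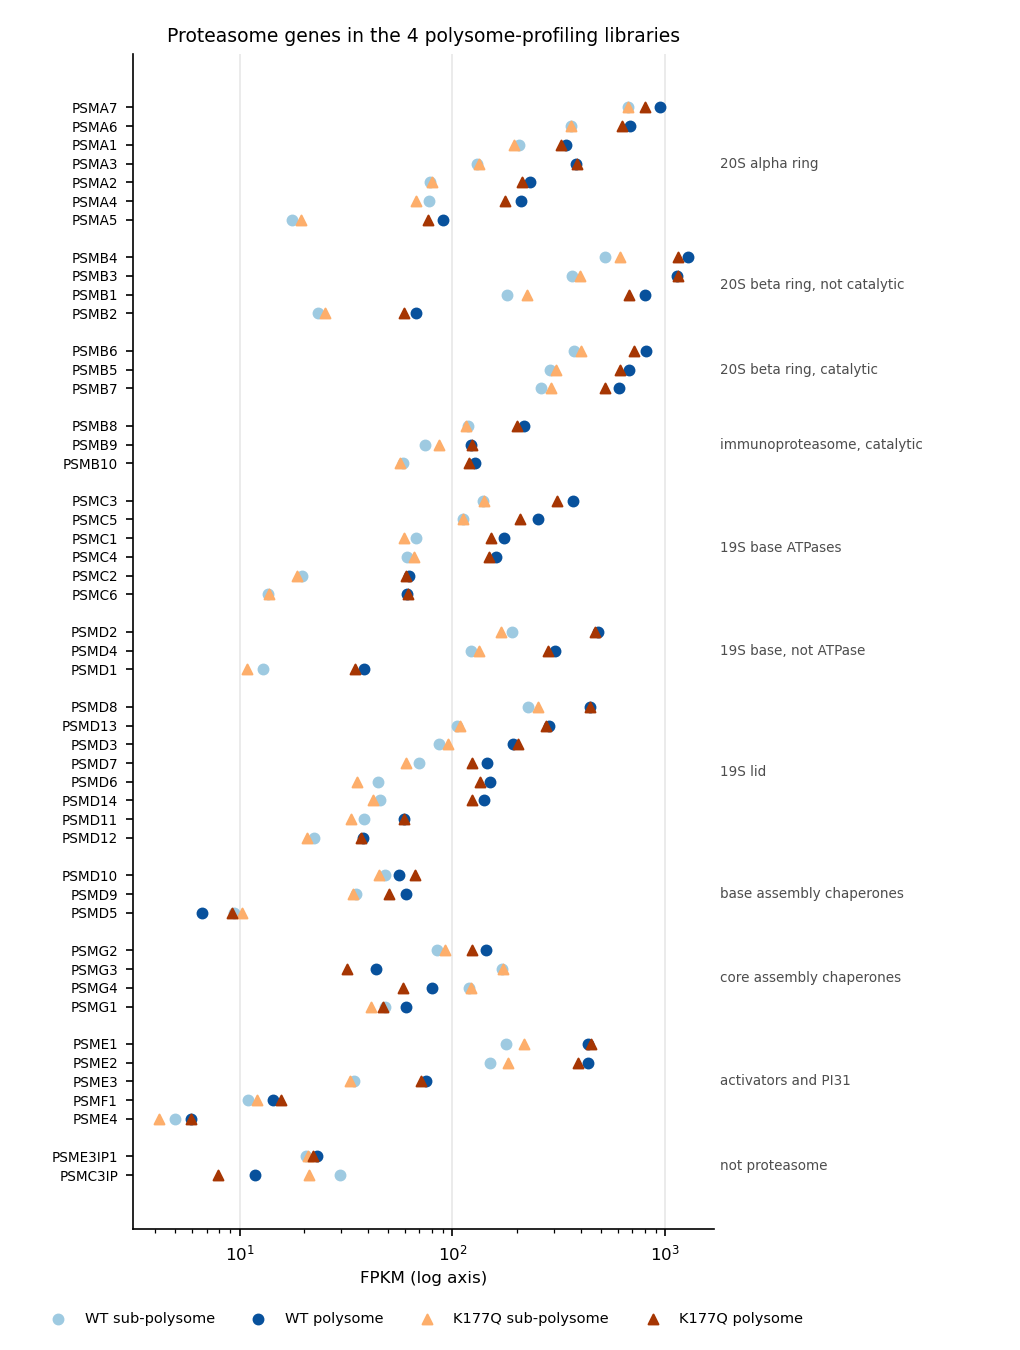
FPKM (log axis) of the 48 proteasome genes that passed the filter, by role, with 1 point per library: circles for WT-METTL3 and triangles for K177Q-METTL3, light for sub-polysome and dark for polysome. For 44 of the 48 genes, the polysome points of both arms lie right of the sub-polysome points, and PSMG3, PSMG4, PSMC3IP and PSMD5 lie the other way.

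Among the structural core genes, PSMB4, a beta subunit without a proteolytic site, had the highest mean level, at 522.6 FPKM off and 1271 FPKM on polysomes in WT-METTL3 cells, against 611.7 and 1141 FPKM in K177Q-METTL3 cells. PSMA7, an alpha subunit, was at 664.8 and 943.4 FPKM in WT-METTL3 cells and at 665.7 and 803.8 FPKM in K177Q-METTL3 cells. Alpha subunits occur in equal numbers in the ring, yet PSMA5 was at 17.6 FPKM off and 90.3 FPKM on polysomes in WT-METTL3 cells, and at 19.5 and 76.7 FPKM in K177Q-METTL3 cells. The ratio of PSMA7 to PSMA5 within a library, which no scaling between libraries can change, was 37.9 and 34.1 in the sub-polysome libraries of WT-METTL3 and K177Q-METTL3 cells. It was 10.4 and 10.5 in their polysome libraries, so the gap between these ring partners was smaller on polysomes in both arms. This restates the polysome to sub-polysome ratios of both genes, and PSMA7 was chosen after its values were seen.

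Translation efficiency was taken as the polysome over the sub-polysome FPKM of a gene, on the scale of log2(FPKM + 0.1), with 1.5-fold (0.585 on the log2 scale) as the threshold for a higher or lower gene. In WT-METTL3 cells 38 of the 48 members were higher on polysomes, where 28.1% of all genes were, and 2 were lower, where 19.1% of all genes were. The members' median log2 ratio was 1.16 (quartiles 0.73 to 1.46), against 0.14 over all genes and 0.18 over mRNAs. In K177Q-METTL3 cells 35 of the 48 were higher, where 30.2% of all genes were, and 3 were lower, where 21.3% were. Their median log2 ratio there was 1.02 (quartiles 0.56 to 1.37), against 0.16 over all genes. In linear terms, the typical proteasome mRNA was 2.24-fold higher on polysomes in WT-METTL3 cells and 2.02-fold higher in K177Q-METTL3 cells.

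Polysome loading differed by role among the genes with a PSM name. In WT-METTL3 cells all 4 non-catalytic and all 3 catalytic beta subunits of the core, all 6 base ATPases, all 3 other base subunits and all 8 lid subunits of that name were beyond 1.5-fold higher on polysomes, with median log2 ratios of 1.59, 1.21, 1.39, 1.34 and 1.11. SEM1, a lid subunit without the name, lay on the other side, at -1.51. Of the 7 alpha subunits that passed, 6 were, with a median of 1.43. The exception was PSMA7, whose ratio was 0.50 in WT-METTL3 and 0.27 in K177Q-METTL3 cells. The assembly chaperones with a PSM name stood lower: the 3 that build the base had a median of 0.22 and the 4 that build the core one of -0.13, and in each set 1 gene was beyond 1.5-fold higher. PAAF1, another base chaperone, and POMP, which completes the core, were at 1.12 and 0.91, and with them the medians became 0.49 over 4 genes and 0.33 over 5, a comparison added after the data were seen. The 5 activators and regulators of the core had a median of 1.13, and 3 of them were beyond 1.5-fold.

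PSMA5 had the highest ratio of all members in WT-METTL3 cells, 2.36 on the log2 scale, and a ratio of 1.97 in K177Q-METTL3 cells. PSMC6, an ATPase of the base, was at 13.6 FPKM off and 61.4 FPKM on polysomes in WT-METTL3 cells, and at 13.7 and 61.7 FPKM in K177Q-METTL3 cells. Its ratio of 2.16 was the highest of all members in K177Q-METTL3 cells, next to 2.17 in WT-METTL3 cells, and the paired libraries of the arms were nearly equal. At the other end was PSMG3, a chaperone of core assembly, at 171.4 FPKM off and 43.7 FPKM on polysomes in WT-METTL3 cells, and at 171.8 and 31.9 FPKM in K177Q-METTL3 cells. Its log2 ratio was -1.97 in WT-METTL3 and -2.43 in K177Q-METTL3 cells, the lowest member in both. PSMG4, its partner in the chaperone pair, was at 119.7 and 80.0 FPKM in WT-METTL3 cells and at 122.8 and 58.6 FPKM in K177Q-METTL3 cells. The PSMG4 ratio was -0.58 in WT-METTL3 cells, just short of 1.5-fold, and -1.07 in K177Q-METTL3 cells. Both genes of this pair were on the sub-polysome side, whereas PSMG2 and PSMG1, which form the other chaperone pair of the core, were on the polysome side, at 0.76 and 0.33 in WT-METTL3 cells and at 0.43 and 0.19 in K177Q-METTL3 cells. PSMC3IP, no proteasome gene, was the other member beyond 1.5-fold lower in both arms, at -1.32 and -1.41.

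**Figure D2:**
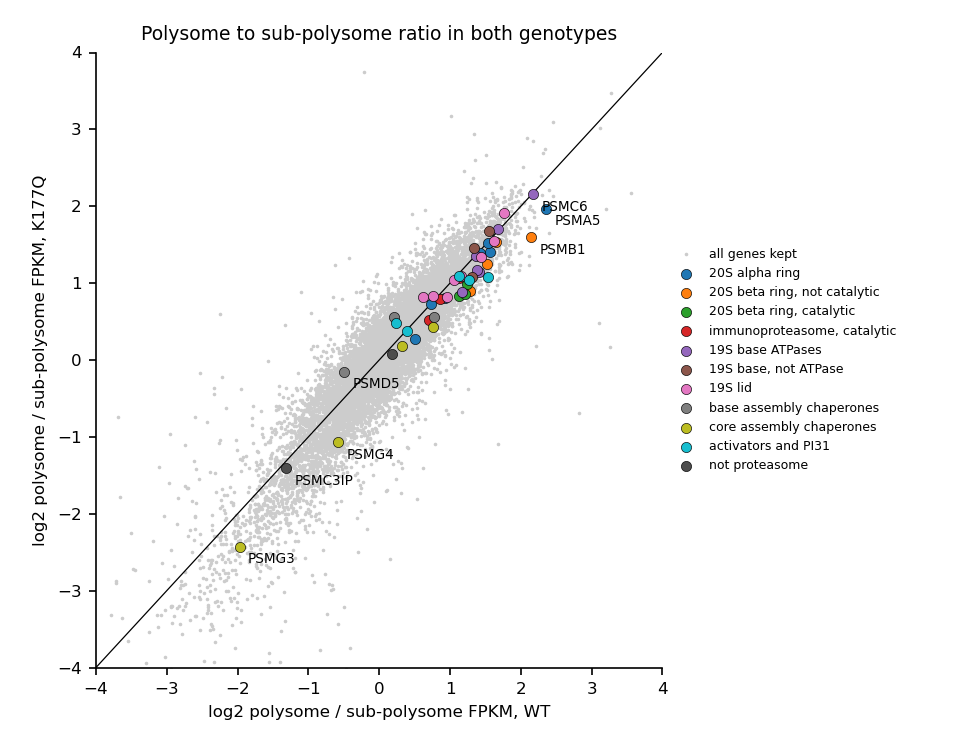
Log2 ratio of polysome to sub-polysome FPKM in WT-METTL3 (x axis) and K177Q-METTL3 cells (y axis), with 1 point per gene, members coloured by role, all other genes that passed the filter in grey and the line of equal ratios; 46 genes lie outside the axes. Most members lie in the upper right, near or under the line, and PSMG3 lies apart from the other members at the lower left, at -1.97 and -2.43.

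Between the arms, no member reached 1.5-fold in translation efficiency. Over all genes 4.08% were higher and 7.03% lower in K177Q-METTL3 cells by this measure. The members' log2 differences ran from -0.55 to 0.35 with a median of -0.10 (quartiles -0.25 to -0.01), against -0.01 over all genes, and 39 of the 48 were below 0, as were 51.1% of all genes. The sign of these differences depends on the scale. When the FPKM values were rescaled to a common total (TPM), every difference rose by 0.30, the members' median became 0.19 against 0.29 over all genes, and 40 of the 48 were above 0. As every gene moves by nearly the same amount, the members' median minus that of all genes, -0.09, was bound to stay nearly as it was. That gap depended on the level of the genes set beside the members: with a minimum mean of 50 FPKM, 35 members had a median of -0.16 and the 2000 genes kept had one of -0.21. In the following, signs between the arms refer to FPKM as deposited.

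The pools were also compared directly. In the polysome libraries no member was 1.5-fold apart, while 2.13% of all genes were higher and 3.13% lower in K177Q-METTL3 cells. The members' median log2 difference was -0.13, against -0.02 over all genes, and 37 of 48 were below 0, as were 53.7% of all genes. In the sub-polysome libraries no member was 1.5-fold apart either, while 4.01% of all genes were higher and 2.94% lower. The members' median was 0.01 and that of all genes 0.00. Above 0 were 27 members and below it 21, where 49.4% of all genes were above and 50.6% below. With TPM the members' polysome and sub-polysome medians became -0.03 and -0.19, against 0.07 and -0.21 over all genes. Below 0 were then 29 of the 48 members in the polysome and 43 in the sub-polysome libraries. With TPM 1 member, PSMC3IP, passed 1.5-fold lower in the sub-polysome libraries, as did 9.85% of all genes.

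**Figure D3:**
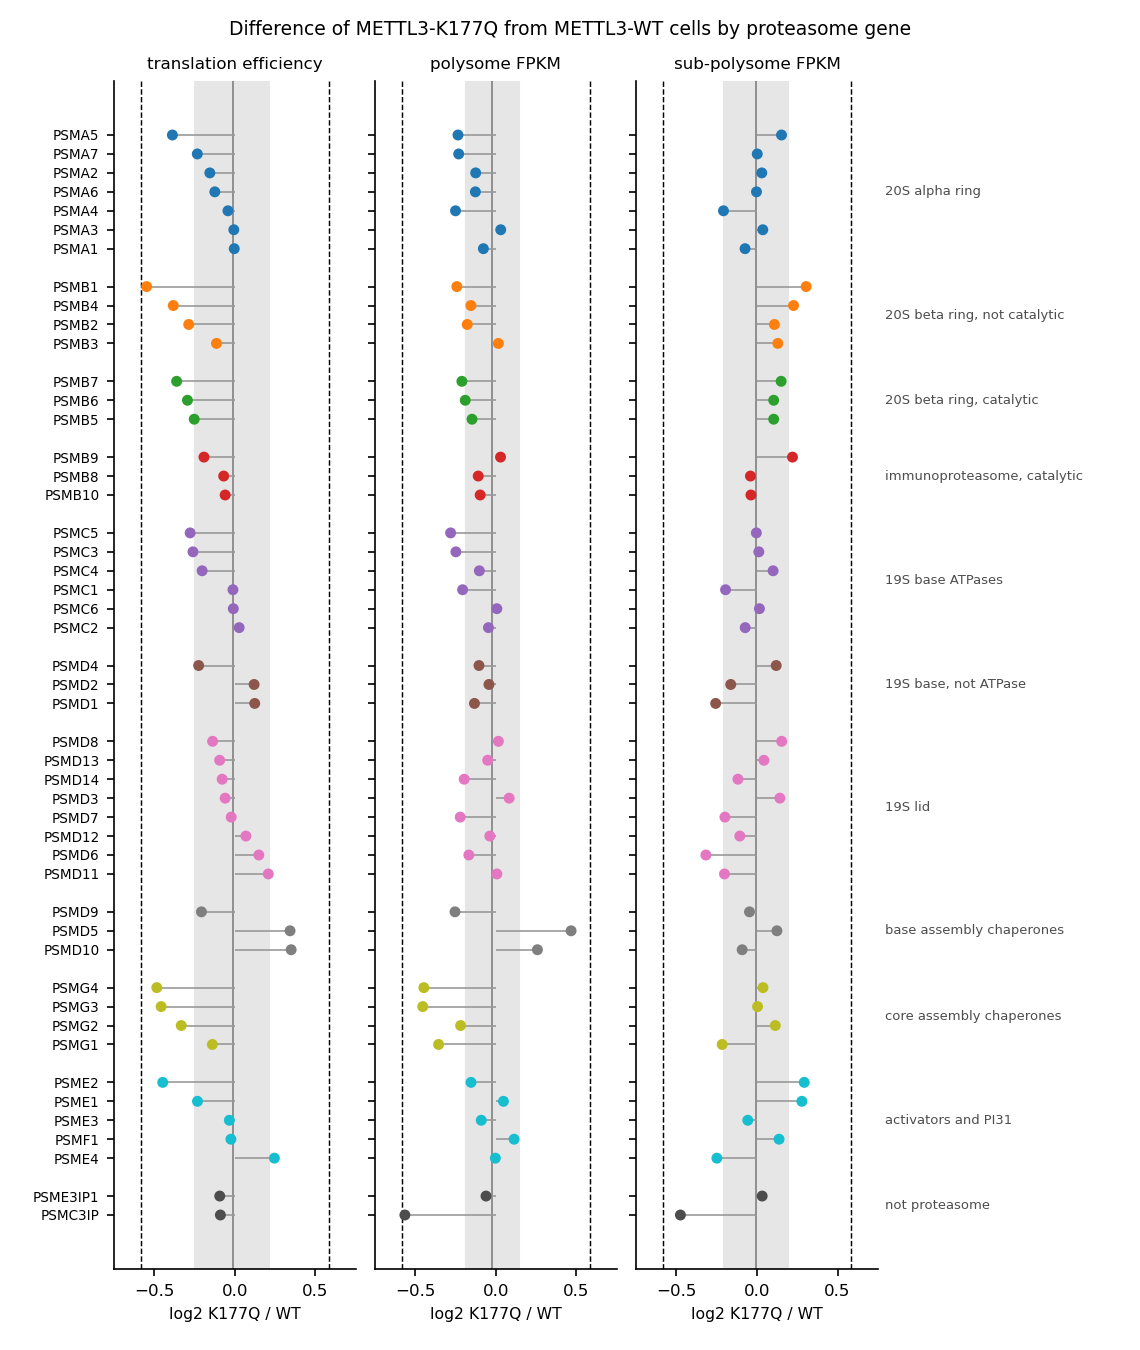
Log2 difference of K177Q-METTL3 from WT-METTL3 cells for the 48 members, on FPKM as deposited, in translation efficiency, polysome FPKM and sub-polysome FPKM; dashed lines mark 1.5-fold, the grey line the median and the grey band the quartiles of all genes that passed the filter. No member crosses a dashed line; all core subunits lie at or below 0 in the left panel, from -0.55 for PSMB1 to -0.004 for PSMA1, and TPM would move every point there up by 0.30.

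The catalytic beta subunits of the standard core were abundant in every library. PSMB5, which carries the chymotrypsin-like site and is the main target of bortezomib, was at 285.7 FPKM off and 677.5 FPKM on polysomes in WT-METTL3 cells, and at 307.1 and 611.3 FPKM in K177Q-METTL3 cells. PSMB6, with the caspase-like site, was at 371.8 and 811.8 FPKM in WT-METTL3 cells and at 399.5 and 711.5 FPKM in K177Q-METTL3 cells. Both had a higher sub-polysome and a lower polysome value in K177Q-METTL3 cells, although with TPM the sub-polysome value was lower too. PSMB7, with the trypsin-like site, was at 260.8 and 604.9 FPKM in WT-METTL3 cells and at 289.4 and 522.6 FPKM in K177Q-METTL3 cells. The log2 difference in translation efficiency was -0.25 for PSMB5, -0.29 for PSMB6 and -0.36 for PSMB7, all under 1.5-fold, and with TPM 0.05, 0.00 and -0.06.

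Of the beta subunits without a proteolytic site, PSMB1 had the largest difference of all members on FPKM as deposited. It was at 180.6 FPKM off and 800.9 FPKM on polysomes in WT-METTL3 cells, and at 223.1 and 677.1 FPKM in K177Q-METTL3 cells. Its log2 ratio went from 2.15 to 1.60, a difference of -0.55, still short of 1.5-fold. With TPM it was -0.25, and PSMD10, at 0.65, had the largest difference. PSMB3, at the other end of this group, differed by -0.11 from 362.8 and 1135 FPKM in WT-METTL3 cells to 396.9 and 1147 FPKM in K177Q-METTL3 cells. In the alpha ring the differences ran from -0.39 for PSMA5 to -0.004 for PSMA1, which was at 204.8 and 341.2 FPKM in WT-METTL3 cells and at 194.6 and 323.3 FPKM in K177Q-METTL3 cells.

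PSMB8, PSMB9 and PSMB10 replace the catalytic subunits in the immunoproteasome, a form that interferon induces and that shapes peptides for antigen presentation. PSMB8 was at 118.8 FPKM off and 216.0 FPKM on polysomes in WT-METTL3 cells, and at 115.5 and 200.1 FPKM in K177Q-METTL3 cells. PSMB9 was at 74.4 and 121.5 FPKM in WT-METTL3 cells and at 86.7 and 124.0 FPKM in K177Q-METTL3 cells. PSMB10 was at 58.4 and 127.7 FPKM in WT-METTL3 cells and at 56.9 and 119.3 FPKM in K177Q-METTL3 cells. All 3 were thus expressed in this line and below their standard counterparts in each library, and their differences in translation efficiency were -0.07, -0.19 and -0.06. Within libraries, PSMB5 exceeded PSMB8 by 2.41 and 3.14 times in the sub-polysome and polysome pools of WT-METTL3 cells and by 2.66 and 3.05 times in K177Q-METTL3 cells. PSMB6 exceeded PSMB9 by 5.00 and 6.68 times in WT-METTL3 cells and by 4.61 and 5.74 times in K177Q-METTL3 cells. For both pairs the standard subunit's lead was larger on polysomes than off them in both arms. For PSMB7 over PSMB10 the ratio was 4.47 and 4.74 in WT-METTL3 cells but 5.09 and 4.38 in K177Q-METTL3 cells, so the order of the pools was not the same in the arms. PSMB8 and PSMB9 lie side by side on opposite strands of chromosome 6 (hg38, chr6:32840717-32844679 and chr6:32844136-32859851) and share 139 exonic bases, and whether fragments were counted by strand is not given in the sources used here.

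In the PSM-named subunits of the 19S particle the differences in translation efficiency ran from -0.28 to 0.21. Of the ATPases, which thread the substrate into the core, PSMC5 had the lowest difference in translation efficiency, -0.28, at 112.6 FPKM off and 253.1 FPKM on polysomes in WT-METTL3 cells and at 112.4 and 208.3 FPKM in K177Q-METTL3 cells. PSMC2 had the highest, 0.03, at 19.6 and 62.6 FPKM in WT-METTL3 cells and at 18.6 and 60.7 FPKM in K177Q-METTL3 cells. Among the other base subunits, PSMD4, a ubiquitin receptor, was at 122.2 and 302.1 FPKM in WT-METTL3 cells and at 132.7 and 280.9 FPKM in K177Q-METTL3 cells, a difference of -0.22. PSMD1, a large scaffold subunit of the base, was on the other side at 0.12, with 12.9 and 38.2 FPKM in WT-METTL3 cells and 10.8 and 34.9 FPKM in K177Q-METTL3 cells.

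The lid held the deubiquitinase PSMD14, which removes ubiquitin chains as the substrate enters. It was at 45.8 FPKM off and 141.3 FPKM on polysomes in WT-METTL3 cells, and at 42.2 and 123.3 FPKM in K177Q-METTL3 cells, lower in both pools of the K177Q-METTL3 arm. Its log2 ratio was 1.62 in WT-METTL3 and 1.54 in K177Q-METTL3 cells. Of the PSM-named lid subunits the extremes were PSMD8 at -0.14, from 227.1 and 440.0 to 252.6 and 444.7 FPKM, and PSMD11 at 0.21, from 38.5 and 59.0 to 33.5 and 59.2 FPKM. Both are scaffold subunits of the lid. With TPM the sub-polysome and polysome differences were -0.05 and 0.11 for PSMD8 and -0.41 and 0.10 for PSMD11. SEM1 lay below PSMD8, at -0.25.

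Set side by side, the 14 subunits of the standard core and the 17 PSM-named ones of the 19S particle had nearly equal median loading in WT-METTL3 cells, with median log2 ratios of 1.36 and 1.37. In K177Q-METTL3 cells the medians were 1.12 and 1.18. The differences between the arms had a median of -0.24 in the core, with 14 of 14 below 0. In the 19S particle the median was -0.02, with 11 of 17 below 0, as were 51.1% of all genes. Genes of higher level lay lower in general: under the 50 FPKM minimum, the median over the 2000 genes kept was -0.21, near that of the core. With TPM these medians were 0.06, with 4 of 14 below 0, and 0.28, with 0 of 17. For the core, the sub-polysome values were higher in K177Q-METTL3 cells for 11 of 14 genes (median 0.10) and the polysome values lower for 12 of 14 (median -0.17). For the 19S particle, 10 of 17 were lower in the sub-polysome (median -0.07) and 13 of 17 in the polysome library (median -0.10). Over all genes 50.6% were lower in the sub-polysome and 53.7% in the polysome library. With TPM the sub-polysome values were lower for 12 of the 14 core and all 17 19S genes, so their direction turns in the core with the scale. The polysome values were then lower for 11 of 14 (median -0.07) and for 9 of 17 (median -0.01). The 17 leave out SEM1 and the ubiquitin receptor ADRM1. With both, the 19S medians over 19 genes were 1.34 in WT-METTL3 cells, 1.15 in K177Q-METTL3 cells and -0.06 for the difference, with 13 of 19 below 0. As TPM moves every gene by nearly the same amount, the gap between the core and 19S medians was bound to stay nearly as it was. The core genes code for 201 to 277 residues, and the 17 PSM-named 19S genes for 310 to 953. The lowest mean level was 43.8 FPKM in the core (PSMB2) and 24.2 FPKM in the 19S particle (PSMD1). With 1 library per group the gap between core and 19S was not tested, nor was the part of length and level in it.

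The assembly chaperones lay on both sides of 0. PSMD10 (gankyrin), a chaperone of the base, was at 48.1 FPKM off and 55.9 FPKM on polysomes in WT-METTL3 cells, and at 45.2 and 66.9 FPKM in K177Q-METTL3 cells. Its difference in translation efficiency, 0.35, was the highest of all members. PSMD5, another base chaperone, was at 9.45 and 6.67 FPKM in WT-METTL3 cells and at 10.3 and 9.25 FPKM in K177Q-METTL3 cells, a difference of 0.34. Both had higher polysome levels in K177Q-METTL3 cells, by 0.26 and 0.47 on the log2 scale. With TPM both passed 1.5-fold higher in translation efficiency, at 0.65 and 0.64, as did 18.6% of all genes. PSMD9, the remaining base chaperone with a PSM name, went the other way at -0.21, from 35.3 and 60.3 to 34.2 and 50.5 FPKM. PAAF1 was at -0.27, and with it 2 of the 4 base chaperones were above 0 and 2 below, with a median of 0.07. All 4 PSM-named chaperones of the core were below 0, with PSMG4 at -0.48, PSMG3 at -0.46, PSMG2 at -0.33 and PSMG1 at -0.14. With TPM 3 of the 4 remained below 0, PSMG1 being above. For PSMG3 and PSMG4 the sub-polysome levels were nearly the same in both arms (log2 differences of 0.00 and 0.04, with TPM -0.20 and -0.17) and the polysome levels lower in K177Q-METTL3 cells (-0.45 for both), as they also were with TPM (-0.36 and -0.35). PSMG4 overlaps TUBB2B over 174 exonic bases on the opposite strand.

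Of the activators, PSME2, which forms a ring with PSME1 that opens the core and is induced by interferon, was at 149.4 FPKM off and 431.7 FPKM on polysomes in WT-METTL3 cells, and at 183.1 and 387.9 FPKM in K177Q-METTL3 cells. Its difference in translation efficiency was -0.45, while PSME1, from 179.0 and 432.1 to 217.2 and 446.3 FPKM, was at -0.23. Both partners were higher in the K177Q-METTL3 sub-polysome library, by 0.29 and 0.28 on the log2 scale, and by 0.09 and 0.07 with TPM. PSME2 has 6 named pseudogenes, whose fragments the counting could share with it. PSME4 (PA200), a large single-chain activator, was at 4.99 and 5.92 FPKM in WT-METTL3 cells and at 4.19 and 5.90 FPKM in K177Q-METTL3 cells, a difference of 0.25. PSMF1, the inhibitor PI31, and PSME3, the nuclear activator, were at -0.02 and -0.03. PSMC3IP and PSME3IP1, the name-only members, were at -0.09 each. PSMC3IP had the lowest values of all members in the direct comparisons of the pools, at -0.56 in the polysome and -0.48 in the sub-polysome libraries, from 29.6 FPKM off and 11.8 FPKM on polysomes in WT-METTL3 cells to 21.2 and 7.95 FPKM in K177Q-METTL3 cells. It overlaps the expressed gene MLX over 715 exonic bases on the opposite strand, whose fragments the counting could share with it.

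Members differ in the length of their coding sequence, a property that the selection did not use. Proteasome proteins are short, with a median of 267.5 residues, against 439 over the mRNAs that passed the filter and have an annotated length (10273 of 10383). PSMG3 and PSMG4, with 122 and 123 residues, are the shortest, and PSME4, with 1843, is the longest. Across the 48 members, Pearson's r between log2 coding length and the difference in translation efficiency was 0.59 (Spearman's rho 0.54), and over all mRNAs it was 0.40 (rho 0.46). Shorter members thus lay lower in K177Q-METTL3 relative to WT-METTL3 cells, as shorter mRNAs did in general. With the ratio in WT-METTL3 cells alone, length had an r of 0.23 (rho 0.15) across the members, which became -0.11 (rho -0.03) without PSMG3, PSMG4 and PSMC3IP, a set chosen after their values were seen. Without these 3, the r with the difference between the arms was 0.52 (rho 0.50). The members' mean FPKM, which is itself part of both sides, had an r of -0.52 (rho -0.48) with the difference, and over all mRNAs one of -0.27 (rho -0.32). These points are genes of the same 4 libraries and not independent samples. The part of length and level in the differences between the arms was not tested.

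Genes around the proteasome that do not bear its name were taken as a list of 26, of which 25 passed the filter. It holds ubiquitin genes, activating enzymes, shuttle factors, proteasome-bound enzymes, POMP, SEM1 and the transcription factors of the proteasome. In WT-METTL3 cells 13 of the 25 were beyond 1.5-fold higher on polysomes and 1 lower, with a median log2 ratio of 0.62, where 28.1% and 19.1% of all genes were and the median was 0.14. In K177Q-METTL3 cells 13 were higher and 1 lower, with a median of 0.72, beside 30.2%, 21.3% and 0.16 over all genes. The 1 lower was SEM1, the very small lid subunit, in both arms, at 443.9 FPKM off and 156.0 FPKM on polysomes in WT-METTL3 cells and at 473.3 and 140.2 FPKM in K177Q-METTL3 cells. None differed by 1.5-fold between the arms in translation efficiency (median 0.06, 15 above 0 and 10 below), where 4.08% of all genes were higher and 7.03% lower, or in polysome level (2.13% and 3.13% of all genes). Over all genes the median difference in translation efficiency was -0.01, and 48.9% were above 0. With TPM, which moves every gene up by 0.30, the list's median was 0.36, against 0.29 over all genes, and 25 of 25 were above 0. Then 4 genes, UBQLN2, NFE2L1, AKIRIN2 and UBQLN1, were beyond 1.5-fold higher in translation efficiency, as were 18.6% of all genes. In the sub-polysome libraries 1 was lower (2.94% of all genes), UBQLN2, a shuttle factor that brings ubiquitin-tagged proteins to the proteasome, at 6.36 FPKM in WT-METTL3 and 3.88 FPKM in K177Q-METTL3 cells.

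NFE2L1, the transcription factor that raises proteasome genes when proteasome activity falls, was at 37.6 FPKM off and 66.0 FPKM on polysomes in WT-METTL3 cells, and at 38.4 and 90.0 FPKM in K177Q-METTL3 cells. Its sub-polysome level was nearly the same in both arms and its polysome level higher in K177Q-METTL3 cells, a difference in translation efficiency of 0.42, short of 1.5-fold. With TPM it was 0.72, beyond 1.5-fold, and the sub-polysome difference was -0.18. DDI2, the protease that cuts NFE2L1 into its active form, did not pass the filter. POMP, the chaperone that completes the core, was at 105.2 and 197.5 FPKM in WT-METTL3 cells and at 109.5 and 182.7 FPKM in K177Q-METTL3 cells, a difference of -0.17, among the values of the core subunits it assembles.

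NFE2L1 and NFE2L2 are known to bind proteasome promoters at the antioxidant response element, whose core was searched as TGACNNNGC on both strands of RefSeq promoter windows (GRCh38.p14, 250 bases before to 50 after each start). Of the 50 members 44 had such a window, and 10 had more than 1. The 6 without a window were PSMA7, PSMB1, PSMB6, PSMB7, PSMD4 and PSMG3. A gene was counted if any of its windows held the motif, and the number of windows per gene was not matched between sets. Of the 44 members 15 (34.1%) held the motif, against 19.9% of 8473 mRNAs that passed the filter and 16.1% of 27305 genes. In 13 of the 15 it lay before the start. Only 5 of the 13 code for constitutive subunits of the core or the 19S particle. The others were PSMB9 of the immunoproteasome, the chaperones PSMD5, PSMD9, PSMG1 and PSMG2, and the activators PSME1, PSME2 and PSME4. The share with the motif among constitutive subunits alone was not taken. Those of the 13 that code for constitutive subunits of the core or the 19S particle are shown, as the members nearest to the known role of these factors, each written 5′ to 3′ on the gene's strand with the match in capitals:
PSMA4: gtgggcacgaTGACTCTGCaccgcctcct
PSMB3: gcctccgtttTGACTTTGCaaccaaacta
PSMC5: gaccggatctGCTGTGTCAgcgccgccct
PSMD3: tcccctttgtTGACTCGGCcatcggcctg
PSMD12: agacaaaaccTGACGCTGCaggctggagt
The stretches lie at chr15:78540650-78540678 on the plus strand for PSMA4, chr17:38752627-38752655 on the plus strand for PSMB3, chr17:63827654-63827682 on the plus strand for PSMC5, chr17:39980760-39980788 on the plus strand for PSMD3 and chr17:67366724-67366752 on the minus strand for PSMD12. In PSMC5 the match reads on the opposite strand, so the capitals are its reverse complement. The matches lie 126, 104, 57, 37 and 165 bases before the start in the same order. The stretches of PSMA4 and PSMC5 fall inside the outermost bounds of their genes in GENCODE 44, since the RefSeq start is not the first start annotated there. The differences of these 5 genes in translation efficiency between the arms were -0.04, -0.11, -0.28, -0.06 and 0.07 in that order, and no binding was measured in these data.

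Some values rest on fragments that other genes could share. Of the 48 members that passed, 11 have an expressed gene over part of their exons, and 17 of the 50 have at least 1 named pseudogene, up to 13 for PSMC1. PSMA5, PSMB7, PSMD4, PSMD14 and PSMD8 have 1 each, PSMG3 has 2 and PSMD10 has 3, whereas PSMB1, PSMB5, PSMB6, PSMD5 and PSMC6 have none.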

How the data were processed

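Per the labels, poly(A) RNA of sub-polysome and polysome pools was made into directional libraries, 1 per group. The authors deposited FPKM per gene, normalized within each library. The submitters' processing notes name STAR 2.7, StringTie 2.1.5 and hg38; the annotation and the strand setting are not given in the sources used here. Another 4 value columns, named like a further replicate of each group, matched no sample in the labels used here and were not used, so each group rests on 1 library. Ratios were computed on log2(FPKM + 0.1) for genes averaging 1 FPKM or more over the 4 libraries, so folds of low genes are understated, and 1.5-fold was the threshold. With 1 library per group no test was made and leaving out a replicate was not possible. Members are set beside all genes tested as counts and medians.

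The members, lists and rule were chosen with earlier results of these data known. Genes were named by role: the catalytic and immunoproteasome subunits, PSMD14, PSMD4, the highest and lowest difference in each role, the highest and lowest translation efficiency, members that failed the filter, NFE2L1, POMP and pathway genes beyond 1.5-fold; PSMA7, PSMB4, PSMD5, PSMG2, PSME1, PSME3, PSMF1, SEM1, ADRM1, PAAF1, DDI2, AKIRIN2, UBQLN1 and the antisense genes, outside this rule, were named after their values were seen. Coordinates and coding lengths come from GENCODE 44 (hg38), coding bases divided into codons, and promoter windows from RefSeq. Fragment numbers were approximated from the lowest value steps, with limits chosen after seeing the data. The code recovered changes planted in simulated data with little noise, which checks the arithmetic only and not calls made from 1 library per group. Python 3.11.15, pandas 2.3.3, numpy 2.4.6, scipy 1.17.1 and matplotlib 3.10.9 were used.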

Additional observations from a re-analysis of the deposited data

How the results depend on the processing

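The alternatives were another pseudocount (1 FPKM), no filter, minimum means of 10 and 50 FPKM, TPM, size factors and a 2-fold threshold, and, added after seeing the data, the members without PSMC3IP and PSME3IP1. Of 115 medians and counts under them, 9 moved, a median when it left the 95% binomial interval of the members' median and a count when it changed by over 1.5 times. The interval treats members as independent, which genes of the same 4 libraries are not, so it served only as a yardstick. With TPM the members' median log2 value became 1.45 for translation efficiency in K177Q-METTL3 cells and 0.19 for its difference between the arms. It became -0.034 for the polysome and -0.19 for the sub-polysome difference. Then 2 members were higher in translation efficiency, where 18.6% of all genes were. In the sub-polysome 1 member was lower, where 9.85% of all genes were. Within that interval, the median in WT-METTL3 cells became 1.30 with TPM and that in K177Q-METTL3 cells 0.91 with size factors. Lower members in WT-METTL3 cells numbered 1 with a minimum of 50 FPKM, 4 with size factors and 1 without the name-only members. Over all genes 18.3%, 22.1% and 19.1% were lower under these settings. Of the values for the 27 named genes, 27 moved by 0.1 or more and 16 changed sign, all with TPM, which shifts every difference between the arms alike. No paired analysis was possible because each group has 1 library and no replicate could be left out. The depth is approximate, and the counting error drawn from it leaves out the spread between cultures, which is unknown.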

Other observations

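Antisense genes that carry a proteasome gene's name were left out by the rule. PSMB8-AS1 was at 6.31 FPKM off and 2.95 FPKM on polysomes in WT-METTL3 cells, and at 6.72 and 2.75 FPKM in K177Q-METTL3 cells. PSMA3-AS1 was at 3.50 and 1.48 FPKM in WT-METTL3 cells and at 2.28 and 1.26 FPKM in K177Q-METTL3 cells. Both lay higher in the sub-polysome than in the polysome library of each arm, opposite to PSMB8 and PSMA3. Both are of class lncRNA (long non-coding RNA), and the share of that class on this side was not taken. In WT-METTL3 cells 2085 of all 10905 genes were 1.5-fold lower on polysomes, and 1666 of the 10383 mRNAs were. Whether these 2 genes stand apart from other non-coding genes was therefore not tested. The other 2, PSMG3-AS1 and PSMD6-AS2, were under 1 FPKM on average. Reads of an antisense gene and its partner cannot be told apart where strand was not used in counting.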
